A study of Homo sapiens with 15 samples.

Results

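The heat shock and endoplasmic reticulum (ER) chaperones are a list of 41 genes, 14 of the cytosolic and mitochondrial heat shock system and 27 of the ER folding machinery and the unfolded protein response. They were picked by name, for what their proteins do, and not by a measured value, but earlier results of these data were known. Of these, 39 were read among 19775 named genes, 13 of the heat shock system and 26 of the ER. For HSPA8, the constitutive cytosolic HSP70, and SYVN1, a ubiquitin ligase of the ER membrane, every probe set was annotated to several genes, so neither was analysed here. Expression was measured in Caco-2, a human colon cancer line of epithelial origin that was kept non-differentiated, on 15 Affymetrix arrays with 1 array per treatment. In 12 of them the cells had been given fluid from a 4-vessel colon simulator for 24 h, at 10% by volume in serum-free medium, after gut bacteria had worked in it for 48 h on 0%, 1% or 2% of polydextrose, a glucose polymer that is hardly digested. Vessel 1 stands for the ascending colon, vessel 2 for the transverse colon, vessel 3 for the descending colon and vessel 4 for the sigmoid colon and rectum, and particles had been spun out of the fluids. The other 3 arrays were 5 mM butyrate, a product of bacterial fermentation that blocks histone deacetylases, 100 mM NaCl, a salt control, and medium alone. The 0% fluids carry whatever the simulator makes without polydextrose. Each concentration was made in a simulation of its own, which gave its 4 fluids, so simulation and concentration cannot be told apart, and p-values measure only the spread among these 12 arrays. All values are log2 signals on the scale the authors deposited, 1 unit of which is a doubling.

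Heat shock proteins hold unfolded proteins in the cytosol and mitochondria and pass them through cycles of binding and release driven by ATP, and the transcription factor HSF1 raises many of their genes when proteins unfold. In the ER the chaperone BiP, calnexin, calreticulin and the disulfide isomerases fold secreted and membrane proteins, and clients that fail are drawn back to the cytosol and degraded. When unfolded proteins gather in the ER, the sensors IRE1, PERK and ATF6 start the unfolded protein response, which raises ER chaperone and degradation genes through XBP1, ATF6 and ATF4.

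The arrays differed little in overall signal, with 42.27% to 44.1% of genes reaching log2 5. Of 6 epithelial markers 4 (EPCAM, CDH1, KRT8 and KRT18) were above 5 on every array, with a summed level of 59.35 to 61.83 over all 6, while VIL1 and CDX2 were below 5. None of 4 leukocyte markers reached 5 on any array. In bulk RNA a smaller number of cells and less RNA per cell cannot be told apart.

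Some promoters of these genes hold the elements for which both systems are known. Of these promoters 4 are shown because their genes differed most between treatments or carry the best-known element. Each is the 250 bases before the annotated start from RefSeq (GRCh38.p14), 5′ to 3′ on the strand of the gene, with the fixed letters of a matched element in capitals.
HSPA5, chr9:125241344-125241593, minus strand: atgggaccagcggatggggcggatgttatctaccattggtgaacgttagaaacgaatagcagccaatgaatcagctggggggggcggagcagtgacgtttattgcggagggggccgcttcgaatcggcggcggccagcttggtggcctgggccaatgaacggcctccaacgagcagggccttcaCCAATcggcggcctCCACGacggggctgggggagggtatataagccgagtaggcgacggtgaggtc
HERPUD1, chr16:56931892-56932141, plus strand: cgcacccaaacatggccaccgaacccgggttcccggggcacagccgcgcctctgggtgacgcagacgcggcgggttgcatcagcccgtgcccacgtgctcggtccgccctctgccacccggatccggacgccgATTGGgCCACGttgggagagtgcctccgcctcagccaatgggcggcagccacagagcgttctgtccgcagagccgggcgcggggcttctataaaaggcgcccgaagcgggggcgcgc
XBP1, chr22:28800570-28800819, minus strand: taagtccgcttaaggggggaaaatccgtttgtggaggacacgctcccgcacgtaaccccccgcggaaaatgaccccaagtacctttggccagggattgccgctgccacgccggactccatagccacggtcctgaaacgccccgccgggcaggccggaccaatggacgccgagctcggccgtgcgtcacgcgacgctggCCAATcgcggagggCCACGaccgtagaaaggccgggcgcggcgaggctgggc
SERPINH1, chr11:75562003-75562252, plus strand: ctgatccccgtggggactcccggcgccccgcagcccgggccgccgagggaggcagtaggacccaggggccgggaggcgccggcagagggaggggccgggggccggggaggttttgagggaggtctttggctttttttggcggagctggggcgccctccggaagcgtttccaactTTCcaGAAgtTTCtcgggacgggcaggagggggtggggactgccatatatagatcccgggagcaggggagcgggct
The capitals in HSPA5 and XBP1 mark the ER stress response element, searched as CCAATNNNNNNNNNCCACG on both strands. It starts 66 bases before the start of HSPA5 and 52 bases before that of XBP1. In HERPUD1 they mark the shorter element II, ATTGGNCCACG, from 117 bases before the start. In SERPINH1 they mark a heat shock element, GAANNTTCNNGAA, which lies on the opposite strand 76 to 64 bases before the start.

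Among 35116 promoter windows of this length, 155 held the heat shock element (0.441%), 26 the ER stress response element (0.074%) and 18 element II (0.0513%). Of the listed genes, 14 heat shock and 25 ER genes had a window. The heat shock element was found in 5 of the 14 heat shock genes and in 0 of the 25 ER genes: HSP90AA1, HSP90AB1, HSPA8, HSPD1 and SERPINH1. Conversely the ER stress response element was found in 7 ER genes (CALR, CANX, CRELD2, HSP90B1, HSPA5, PDIA6 and XBP1) and element II in 3 others (HERPUD1, HYOU1 and SDF2L1), and neither in a heat shock gene. HSP90AB1, HSPA8 and HSPD1 held 2 heat shock elements each, which overlap in HSPD1, HSP90B1 held 2 ER stress response elements and HYOU1 held element II in 2 places. Some of the matches can be compared base by base, as written from 5′ to 3′ on the strand that holds them.
HSP90AA1 heat shock element: GAAccTTCcgGAA
HSPD1 heat shock element: GAActTTCcaGAA
SERPINH1 heat shock element: GAAacTTCtgGAA
CALR ER stress response element: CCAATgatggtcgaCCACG
CANX ER stress response element: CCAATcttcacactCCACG
PDIA6 ER stress response element: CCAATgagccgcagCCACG
HYOU1 element II: ATTGGaCCACG
SDF2L1 element II: ATTGGtCCACG
A match describes the letters of this window only. HSPD1 and HSPE1 lie head to head on chromosome 2, with 104 bases between their starts, so they share 1 promoter region. The heat shock elements of HSPD1 lie outside these 104 bases, at chr2:197500068-197500085. They were found in the window of another annotated start of HSPD1.

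Over the treatments the compartments differed in which genes stood above or below medium. In the fluids the median gene of ER-associated degradation was above medium, while all 3 mitochondrial chaperones were below it. The median of 6 degradation genes, of which DERL2 was below medium in all fluids, was 0.51 to 0.87 above medium in 11 of the 12 fluids, and 0.03 above it with 0% fluid of vessel 1. By contrast the median of the 3 mitochondrial genes was below medium on all 14 other arrays, by 0.24 to 0.68 in the fluids, by 1.28 with butyrate and by 0.54 with NaCl. Other roles did not part by compartment in this way. In vessels 2 to 4 of 2% the median of 9 ER chaperones was at -0.52, -0.56 and -0.37 from medium. That of 5 isomerases was at -0.55, -0.60 and -0.52, and that of 9 HSP70, HSP90 and small heat shock genes at -0.13, -0.08 and -0.14. In vessel 1 of 1% these medians were 0.43, 0.06 and -0.02, and in vessel 4 of 0% 0.22, -0.09 and -0.20. The median of the degradation genes rests on 1 probe set per gene. With 0% fluid the other 2 bright sets of DERL1 were at -0.30 and -0.27 from medium, against 0.15 for the one used. The second set of OS9 was at 0.01, against 0.56, and a dimmer set of SEL1L at 0.73, against 0.42. Of 13 heat shock genes 7 were below medium in all 12 fluids and 2 were above it in all 12, against 28.2% and 32.6% of all 8737 genes tested. Of the 26 ER genes 3 were below it in all 12 fluids and 2 (EDEM1 and OS9) above it. The median difference from medium over the ER genes exceeded that over the heat shock genes in 11 of 12 fluids, by 0.17 ± 0.18 (SD, n = 12), with a range from -0.06 to 0.62. It did so by 0.21 with butyrate and by -0.12 with NaCl, and all of these share the 1 medium array, so they have no replicate check.

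**Figure D1:**
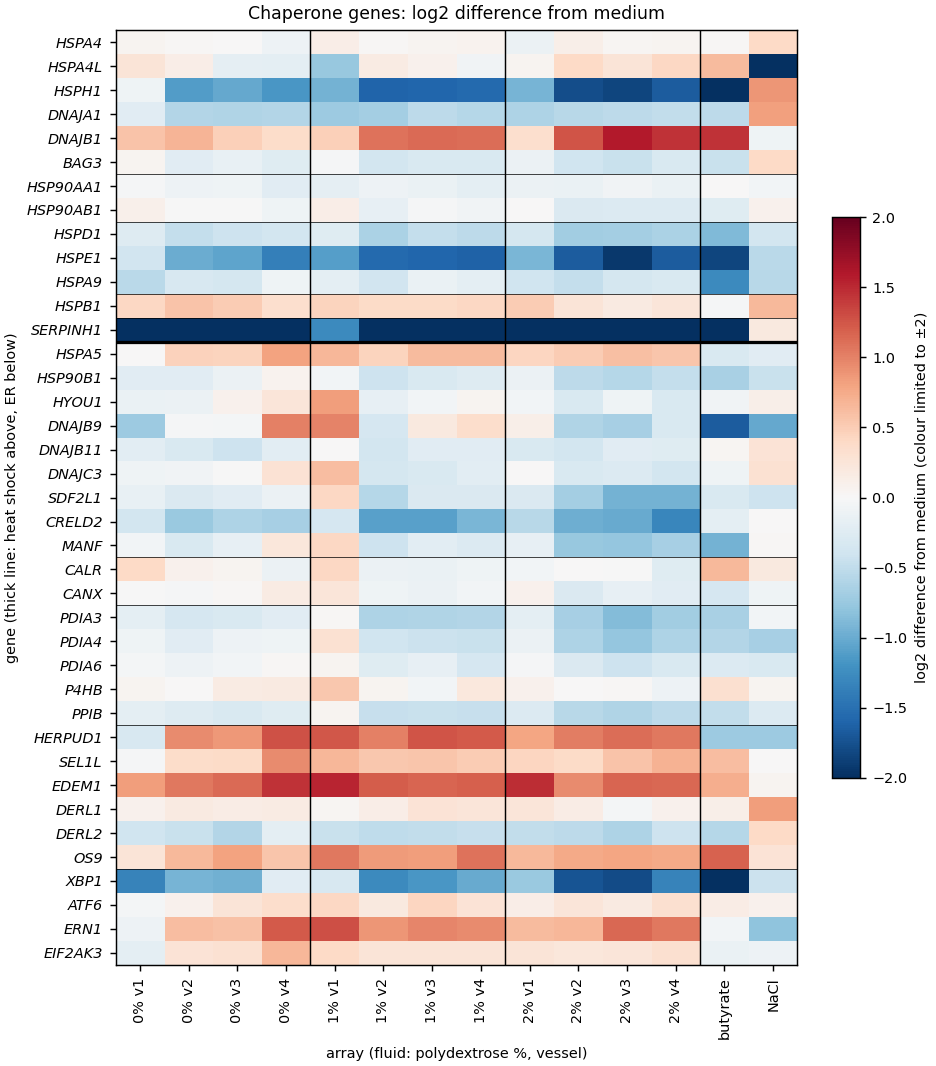
Log2 difference of each of the 39 genes (rows) from the medium array on the 12 fluid arrays, butyrate and NaCl (columns), with red above medium, blue below it and colour limited to a difference of 2; thin lines part the roles. HSPH1, HSPE1, SERPINH1 and XBP1 are blue in the fluids and with butyrate, while HERPUD1, HSPA5 and ERN1 are red in most fluids and not with butyrate.

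**Figure D2:**
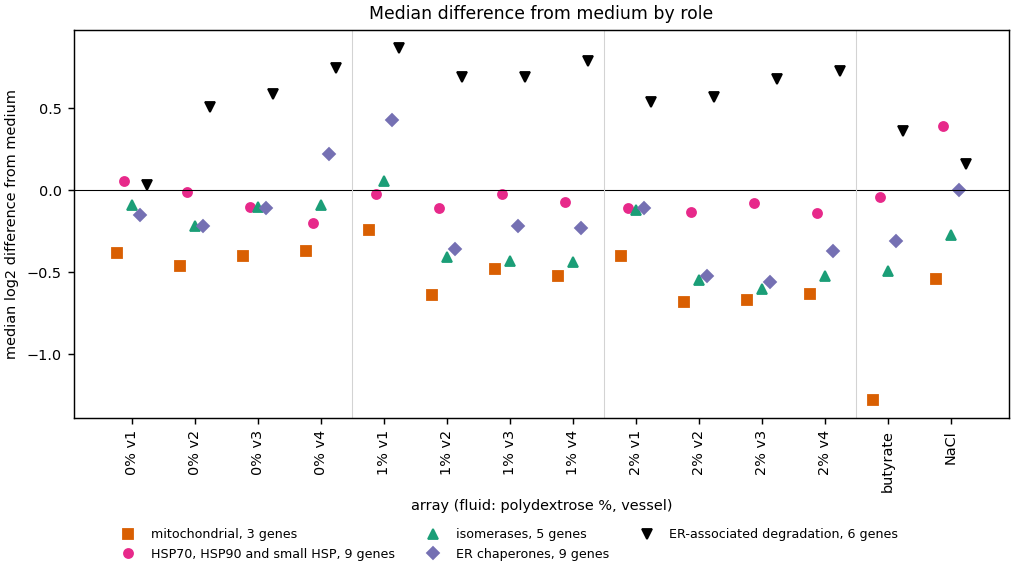
Median log2 difference from medium over the genes of each role on each array (y axis, log2 units; x axis, the 12 fluids, butyrate and NaCl). Triangles pointing down, for 6 genes of ER-associated degradation, lie above 0 on every array, and squares, for 3 mitochondrial chaperones, lie below it on every array. Diamonds, for 9 ER chaperones, and triangles pointing up, for 5 isomerases, lie below 0 in most fluids.

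Among the cytosolic HSP70 partners, HSPH1 and DNAJB1 stood apart in opposite directions. HSPH1 encodes HSP110, which swaps the nucleotide of HSP70. From vessel 1 to vessel 4 its level was 10.60, 9.56, 9.66 and 9.52 with 0% fluid, 9.74, 9.08, 9.09 and 9.13 with 1% and 9.75, 8.90, 8.85 and 9.02 with 2%. It was 8.51 with butyrate and 11.56 with NaCl, against 10.68 in medium. All 12 fluids were thus below medium, vessel 1 was the highest at each concentration, and butyrate gave the lowest array. DNAJB1, the HSP40 that hands unfolded clients to HSP70, was at 10.62, 10.73, 10.52 and 10.41 with 0% fluid, at 10.52, 11.14, 11.19 and 11.17 with 1% and at 10.38, 11.30, 11.63 and 11.49 with 2%. Butyrate gave 11.49 and NaCl 9.96, against 10.05 in medium. All fluids were above medium, and with 1% and 2% vessel 1 was the lowest, among the 0% fluids with 1% and below them with 2%. Both genes were read by a second probe set, which differed from medium with butyrate by -2.29 for HSPH1 and by 1.43 for DNAJB1, close to the -2.17 and 1.44 of the first.

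DNAJA1, another HSP40, was at 11.49, 11.13, 11.11 and 11.12 with 0% fluid, at 10.99, 11.03, 11.18 and 11.14 with 1% and at 11.09, 11.16, 11.19 and 11.21 with 2%, at 11.18 with butyrate and at 12.53 with NaCl, against 11.71 in medium. The fluids and butyrate lay below medium and NaCl above it. BAG3, a co-chaperone that leads HSP70 clients to autophagy, was at 10.73, 10.45, 10.52 and 10.43 with 0% fluid, at 10.65, 10.30, 10.36 and 10.36 with 1% and at 10.55, 10.27, 10.23 and 10.36 with 2%. Its level was 10.23 with butyrate and 11.07 with NaCl, against 10.67 in medium. Vessel 1 had the highest value at each concentration. HSPA4, a relative of HSPH1, spanned 11.92 to 12.17 in the fluids, a range of 0.24, and was at 12.07 with butyrate and 12.44 with NaCl, against 12.04 in medium. HSPA4L, a further relative of HSPH1, was at 7.34, 7.22, 6.90 and 6.88 with 0% fluid, at 6.32, 7.25, 7.17 and 7.01 with 1% and at 7.13, 7.48, 7.34 and 7.49 with 2%, at 7.71 with butyrate and at 4.52 with NaCl, against 7.08 in medium. The NaCl array was the only one below 5 for HSPA4L, and a second probe set gave a smaller difference there, -0.60.

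Of the other cytosolic chaperones the HSP90 genes spanned little between the fluids. HSP90AA1, the inducible HSP90, was at 13.75 to 13.94 in the fluids, at 13.98 with butyrate and at 13.92 with NaCl, against 13.97 in medium. HSP90AB1, the constitutive HSP90, was at 12.90, 12.79, 12.79 and 12.71 with 0% fluid, at 12.94, 12.64, 12.78 and 12.73 with 1% and at 12.81, 12.51, 12.53 and 12.52 with 2%, and it was at 12.56 with butyrate and 12.89 with NaCl, against 12.80 in medium. Vessels 2 to 4 of 2% were below every other fluid for HSP90AB1 and close to butyrate. Its other probe sets, about as bright, were at -0.41 and -0.32 from medium with 0% fluid, against 0 for the one used. They were at -0.65 and -0.56 with butyrate, against -0.24, and at -0.34 and -0.21 with NaCl, against 0.09. HSPB1, the small heat shock protein HSP27, was at 12.07 to 12.46 in the fluids, at 11.86 with butyrate and at 12.54 with NaCl, against 11.89 in medium, so that all 12 fluids were above medium and below NaCl.

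The mitochondrial chaperonin and its partner were below medium on every other array. HSPE1, the HSP10 lid of the chaperonin, was at 11.88, 11.27, 11.22 and 10.91 with 0% fluid, at 11.17, 10.71, 10.69 and 10.66 with 1% and at 11.35, 10.61, 10.34 and 10.60 with 2%. Its level was 10.44 with butyrate and 11.73 with NaCl, against 12.27 in medium. In each vessel both 1% and 2% were below 0%, and vessel 3 of 2% was the only fluid below butyrate. HSPD1, the HSP60 chaperonin itself, was at 13.51, 13.30, 13.36 and 13.40 with 0% fluid, at 13.53, 13.13, 13.29 and 13.25 with 1% and at 13.42, 13.08, 13.09 and 13.14 with 2%. It was at 12.89 with butyrate and at 13.41 with NaCl, against 13.77 in medium. Medium was the highest of the 15 arrays for HSPD1, as for HSPE1, and butyrate the lowest, and the fluids spanned 0.45 for HSPD1 and 1.54 for HSPE1. HSPA9, the mitochondrial HSP70, was at 11.58, 11.80, 11.77 and 12.04 with 0% fluid, at 11.92, 11.74, 11.98 and 11.92 with 1% and at 11.72, 11.65, 11.77 and 11.82 with 2%, at 10.84 with butyrate and at 11.56 with NaCl, against 12.12 in medium. Every fluid was above butyrate and NaCl for HSPA9.

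SERPINH1, the collagen chaperone HSP47, which is induced by heat shock but works in the ER, had the widest span of the list. It was at 6.58, 5.79, 6.15 and 5.66 with 0% fluid, at 7.66, 4.03, 4.22 and 4.48 with 1% and at 6.20, 3.61, 3.39 and 3.72 with 2%. Its level was 3.70 with butyrate and 9.14 with NaCl, against 8.94 in medium. All 12 fluids were below medium and NaCl, and butyrate and vessels 2 to 4 of 1% and 2% were under log2 5, where signals are close to background and the size of a difference is only a bound. In the same arrays COL1A1, a collagen gene that is the only 1 of 5 fibroblast markers above 5 on any array, was at 5.26 to 8.26 in the fluids, at 8.13 with butyrate and at 3.29 with NaCl, against 1.37 in medium. The summed level of the 5 fibroblast markers was 13.82 to 16.87 in the fluids, 16.66 with butyrate and 11.38 with NaCl, against 9.52 in medium, and their part in the SERPINH1 values was not tested.

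**Figure D3:**
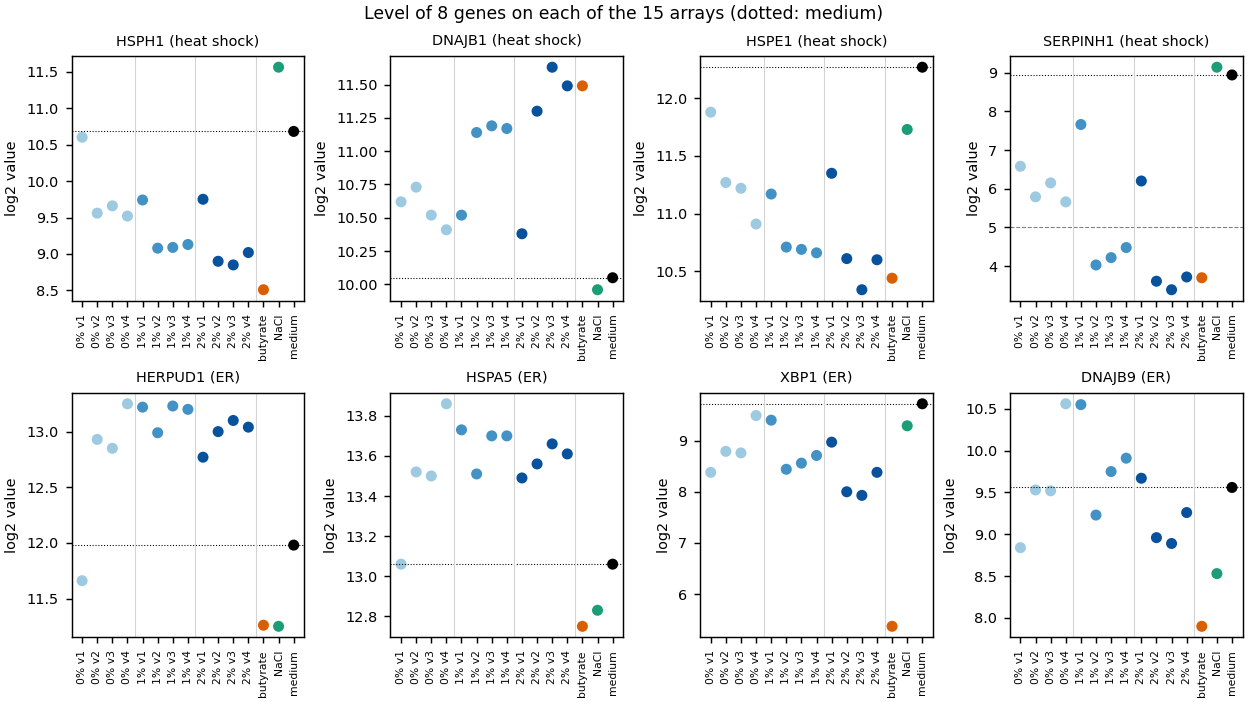
Log2 level of 4 heat shock genes (top) and 4 ER genes (bottom) on each of the 15 arrays; each point is 1 array, blue shades are the fluids by concentration, orange is butyrate, green NaCl and black medium, the dotted line is medium and the dashed line in the SERPINH1 panel is log2 5. The fluids of HSPH1, HSPE1 and SERPINH1 lie between medium and butyrate or near butyrate, while those of HERPUD1 lie above both in 11 of 12 arrays.

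Of the ER chaperones HSPA5 was above medium in the fluids and below it with butyrate. HSPA5 encodes BiP, the HSP70 of the ER. Its level was 13.06, 13.52, 13.50 and 13.86 with 0% fluid, 13.73, 13.51, 13.70 and 13.70 with 1% and 13.49, 13.56, 13.66 and 13.61 with 2%. It was 12.75 with butyrate and 12.83 with NaCl, against 13.06 in medium. Only the fluid of vessel 1 with 0% did not exceed medium. DNAJB9, an HSP40 of the ER that is strongly induced when proteins unfold there, was at 8.84, 9.53, 9.52 and 10.56 with 0% fluid, at 10.55, 9.23, 9.75 and 9.91 with 1% and at 9.67, 8.96, 8.89 and 9.26 with 2%. Butyrate gave 7.90 and NaCl 8.53, against 9.56 in medium. The fluids lay on both sides of medium, with vessel 4 of 0% and vessel 1 of 1% highest, and all of them were above butyrate and NaCl.

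HSP90B1, the ER form of HSP90, was at 11.81, 11.81, 11.93 and 12.11 with 0% fluid, at 11.99, 11.62, 11.74 and 11.78 with 1% and at 11.93, 11.51, 11.47 and 11.57 with 2%, and at 11.39 with butyrate and 11.59 with NaCl, against 12.04 in medium. Vessel 4 of 0% was its only fluid above medium. HYOU1, the nucleotide exchange factor of BiP, was at 9.70 to 10.25 in 11 fluids and at 10.84 in vessel 1 of 1%, against 10.01 in medium. DNAJC3, an ER protein that binds BiP, was at 9.59 to 10.24 in 11 fluids and at 10.57 in vessel 1 of 1%, against 9.95 in medium. In both of these genes vessel 1 of 1% was thus the highest of all 15 arrays. DNAJB11, another BiP partner, stayed between 10.24 and 10.66 in the fluids, against 10.65 in medium.

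SDF2L1, a partner of the ER HSP40s, was at 7.31, 7.17, 7.23 and 7.35 with 0% fluid, at 7.88, 6.89, 7.17 and 7.17 with 1% and at 7.17, 6.78, 6.52 and 6.51 with 2%, and at 7.15 with butyrate and 7.04 with NaCl, against 7.46 in medium. MANF, a secreted ER stress protein, was at 10.19, 9.94, 10.07 and 10.46 with 0% fluid, at 10.66, 9.82, 10.03 and 9.97 with 1% and at 10.07, 9.48, 9.46 and 9.58 with 2%, and at 9.30 with butyrate and 10.26 with NaCl, against 10.24 in medium. CRELD2, another ER stress protein, was at 8.71, 8.34, 8.47 and 8.42 with 0% fluid, at 8.75, 8.0, 7.99 and 8.17 with 1% and at 8.53, 8.11, 8.07 and 7.77 with 2%, and at 8.88 with butyrate and 9.08 with NaCl, against 9.08 in medium. In all 3 genes vessel 1 of 1% was the highest fluid and vessels 2 to 4 of 2% were among the lowest, and for CRELD2 all 12 fluids were below medium, NaCl and butyrate.

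The isomerases PDIA3, PDIA4 and PPIB lay below medium in vessels 2 to 4 at each concentration. PDIA3, a disulfide isomerase for glycoproteins, was at 12.13, 11.98, 12.01 and 12.09 with 0% fluid, at 12.34, 11.71, 11.72 and 11.73 with 1% and at 12.12, 11.65, 11.46 and 11.62 with 2%, and at 11.67 with butyrate and 12.27 with NaCl, against 12.32 in medium. PDIA4, a further disulfide isomerase, was at 10.24, 10.11, 10.23 and 10.25 with 0% fluid, at 10.63, 9.93, 9.90 and 9.89 with 1% and at 10.22, 9.71, 9.55 and 9.71 with 2%, and at 9.74 with butyrate and 9.67 with NaCl, against 10.33 in medium. Both genes had 1 fluid above medium, vessel 1 of 1%. PPIB, the prolyl isomerase cyclophilin B, was at 12.67, 12.60, 12.56 and 12.62 with 0% fluid, at 12.92, 12.40, 12.42 and 12.40 with 1% and at 12.59, 12.30, 12.26 and 12.34 with 2%, and at 12.37 with butyrate and 12.58 with NaCl, against 12.86 in medium. CALR, the soluble lectin chaperone calreticulin, was at 9.75, 9.43, 9.40 and 9.23 with 0% fluid, at 9.76, 9.24, 9.21 and 9.26 with 1% and at 9.30, 9.35, 9.34 and 9.11 with 2%, and at 10.00 with butyrate and 9.55 with NaCl, against 9.35 in medium. PPIB followed PDIA3 in that vessel 1 of 1% alone exceeded medium, while CALR was highest with butyrate. By its other bright probe sets CALR was at -0.35 and -0.28 from medium with 0% fluid, against 0.10 for the one used. With butyrate they gave 0.29 and 0.44, against 0.65. CANX, the membrane lectin chaperone calnexin (11.66 to 12.19), and the isomerases PDIA6 (10.82 to 11.28) and P4HB (11.46 to 12.10) were also highest among the fluids in vessel 1 of 1%, against 11.95, 11.23 and 11.56 in medium.

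By the probe sets used, genes of ER-associated degradation were the ones that most often exceeded medium. HERPUD1, which organises the degradation complex in the ER membrane, was at 11.66, 12.93, 12.85 and 13.25 with 0% fluid, at 13.22, 12.99, 13.23 and 13.20 with 1% and at 12.77, 13.00, 13.10 and 13.04 with 2%. It was at 11.26 with butyrate and at 11.25 with NaCl, against 11.98 in medium. Apart from vessel 1 of 0%, all fluids were above medium, while both single compounds were below it. EDEM1, which marks misfolded glycoproteins, was at 7.89, 8.11, 8.19 and 8.50 with 0% fluid, at 8.58, 8.27, 8.23 and 8.25 with 1% and at 8.53, 8.0, 8.23 and 8.21 with 2%, and at 7.79 with butyrate and 7.11 with NaCl, against 7.06 in medium. Every fluid exceeded all 3 other arrays for EDEM1. OS9, a lectin that delivers such glycoproteins, was at 8.54, 8.93, 9.08 and 8.84 with 0% fluid, at 9.34, 9.13, 9.11 and 9.36 with 1% and at 8.93, 9.04, 9.07 and 9.04 with 2%, and at 9.46 with butyrate and 8.56 with NaCl, against 8.28 in medium. Its second probe set differed less, by 0.71 with butyrate and by 0.01 with 0% fluid, against 1.18 and 0.56 for the first. SEL1L, the scaffold of the degradation ligase, was at 8.34 with 0% fluid of vessel 1 and at 8.73 to 9.31 in the other fluids, against 8.36 in medium, DERL1 stayed between 9.46 and 9.77, against 9.5, and DERL2 was below medium in all fluids (9.33 to 9.75, against 9.94).

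The sensors and their transcription factor did not move together. ERN1, the sensor IRE1, which splices XBP1 mRNA, was at 8.32, 9.04, 9.01 and 9.64 with 0% fluid, at 9.71, 9.30, 9.40 and 9.36 with 1% and at 9.05, 9.09, 9.57 and 9.48 with 2%. It was at 8.37 with butyrate and at 7.61 with NaCl, against 8.42 in medium. XBP1, the transcription factor made active by that splicing, was at 8.38, 8.79, 8.76 and 9.49 with 0% fluid, at 9.40, 8.44, 8.56 and 8.71 with 1% and at 8.97, 8.0, 7.93 and 8.38 with 2%. Its level was 5.37 with butyrate and 9.29 with NaCl, against 9.72 in medium. So ERN1 was above medium in every fluid but that of vessel 1 with 0%, and XBP1 was below medium in every fluid and far lower with butyrate. Spliced and unspliced XBP1 mRNA are not told apart by these values. EIF2AK3, the sensor PERK, was at 8.74 in vessel 1 of 0% and at 9.16 to 9.59 in the other fluids, against 8.93 in medium, and ATF6, the sensor that is cut to a transcription factor, was at 7.22 to 7.69, against 7.26.

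Butyrate was set against medium to show what this acid alone does, with 1 array on each side, so neither the differences nor the counts have a replicate check. HSPH1, HSPE1, HSPA9, SERPINH1, XBP1 and DNAJB9 were lower and DNAJB1 and OS9 higher by at least 1 on the log2 scale. XBP1 had the largest difference read above log2 5 on both arrays, -4.35, a level 20.4-fold lower with butyrate. SERPINH1 differed by -3.94 or below, a bound because its butyrate value lay under log2 5, HSPH1 differed by -2.17 (4.5-fold), HSPE1 by -1.83 (3.56-fold), DNAJB9 by -1.67 and HSPA9 by -1.28. DNAJB1 was higher by 1.44 and OS9 by 1.18. In all, 5 of 13 heat shock and 3 of 26 ER genes were past this size, against 31.2% of 8057 genes compared. The median difference was -0.44 for the heat shock genes and -0.24 for the ER genes, against 0 for all genes.

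The salt control, also 1 array, gave few differences of that size by the probe sets used. Lower with NaCl than in medium were 1 of 13 heat shock genes, HSPA4L, by a difference of -2.08 or below, and 1 of 26 ER genes, DNAJB9, which differed by -1.03, against 16.6% of 7874 genes compared. HSPH1 (0.88), DNAJA1 (0.82) and DERL1 (0.84) were higher with NaCl by less than 1, but DERL1 was lower there by its other 2 bright probe sets (-0.54 and -0.40). A further bright set each of HSPA5 (-1.69), HSPA9 (-1.35), HSPH1 (1.05) and DNAJB9 (-1.92) did pass 1. Another of DNAJB9 (-0.82) and 1 of HSPA4L (-0.60) did not. Dimmer sets of HSP90B1 (-1.03) and HSPD1 (-1.27, with its NaCl value under log2 5) passed 1 too. Of 22 genes with several bright sets, 15 had the same sign with NaCl in all of them. Between the 2 single compounds, butyrate against NaCl, 6 heat shock genes and 1 ER gene differed by at least 1, against 33% of 8153 genes: HSPA4L by at least 2.71 and DNAJB1 by 1.52 were higher with butyrate, and HSPH1 (-3.05), DNAJA1 (-1.35), HSPE1 (-1.29), SERPINH1 (-4.14 or below) and XBP1 (-3.93) were lower.

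The fluids as means of 4 vessels were set against the same medium array. With 0% fluid 1 heat shock gene and 1 ER gene differed by at least 1, SERPINH1 (-2.90) and EDEM1 (1.12), against 12.6% of 7820 genes. With 1% fluid 3 heat shock genes and 3 ER genes did, against 19.7% of 7898: SERPINH1 (-3.85, again with vessels 2 to 4 under log2 5), HSPE1 (-1.46) and HSPH1 (-1.42) were lower, and EDEM1 (1.28), HERPUD1 (1.18) and ERN1 (1.02) were higher. With 2% fluid 4 heat shock genes and 3 ER genes did, against 23.2% of 7925: SERPINH1 (-4.71 from the values as deposited, with vessels 2 to 4 under log2 5), HSPH1 (-1.55), HSPE1 (-1.54) and XBP1 (-1.40) were lower, and EDEM1 (1.19), DNAJB1 (1.15) and HERPUD1 (1.00) were higher. At 2% the lower ones thus included 3 heat shock genes and the higher ones 2 ER genes. Without vessel 1 of 0% the count at 0% was 5.

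Set against butyrate itself, the 2% fluids differed by at least 1 in 3 of 26 ER genes and in 0 of the 12 heat shock genes that could be compared, with 5% of 7766 genes past that size. The ER genes were XBP1 (2.95 higher), HERPUD1 (1.72 higher) and DNAJB9 (1.30 higher), each above butyrate in all 4 fluids. HSPA9 (0.90), HSPA5 (0.83) and ERN1 (0.92) were above butyrate in all 4 fluids by less than 1. CRELD2 (-0.76) and CALR (-0.72) were below it in all 4. In vessels 2 to 4, DNAJB1 was at a mean of 11.48 with 2% fluid and at 11.49 with butyrate, DNAJA1 at 11.19 and 11.18, and HSPE1 at 10.52 and 10.44. All 3 of these fluids were nearer to butyrate than to medium for 9 of 13 heat shock and 15 of 26 ER genes, against 62.4% of all genes tested, so the share in ER genes was about that of all genes. They were nearer to medium for 3 heat shock and 9 ER genes, against 19% of all genes. For some genes butyrate and medium were almost equal, so being nearer to either says little. Butyrate differed from medium by 0.01 for HSP90AA1, 0.04 for HSPA4, -0.04 for HSPB1 and -0.05 for ERN1. Other genes counted as nearer to butyrate because the fluids lay beyond it. CRELD2 was at -0.20 from medium with butyrate and at a mean of -1.10 in these fluids.

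**Figure D4:**
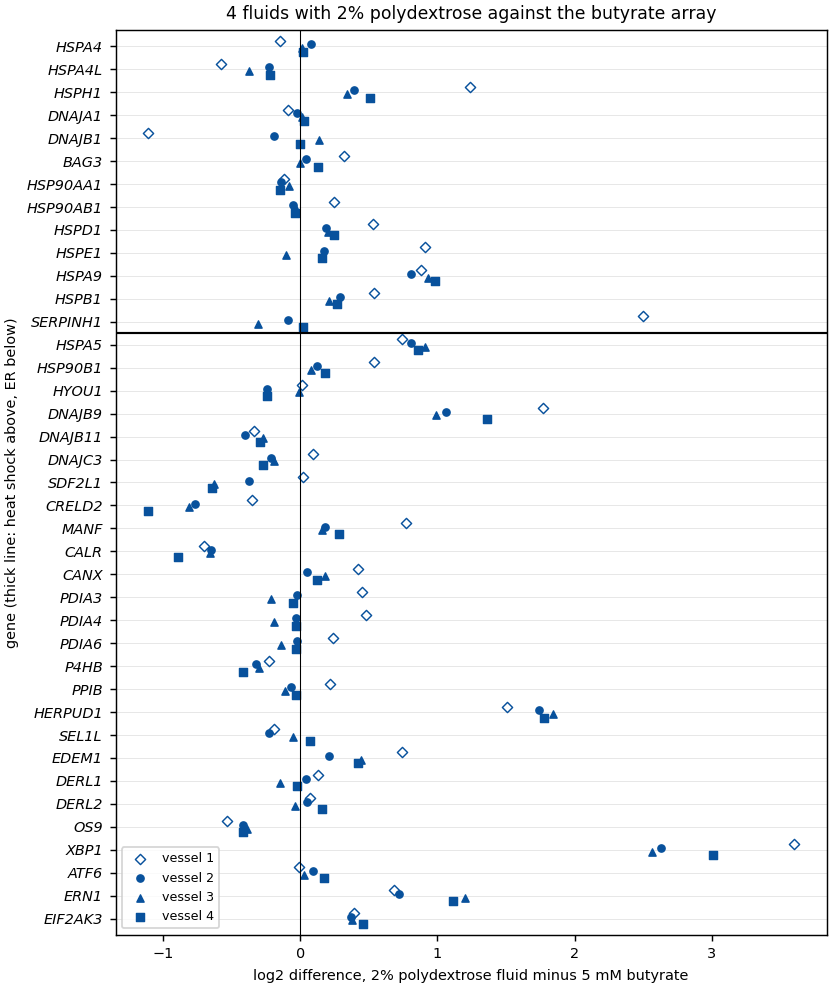
Log2 difference of the 4 fluids with 2% polydextrose from the butyrate array (x axis) for each of the 39 genes (rows); each symbol is 1 vessel, with open diamonds for vessel 1. Most heat shock genes in vessels 2 to 4 lie within 0.5 of the line at 0, apart from HSPA9, while XBP1, HERPUD1, DNAJB9, ERN1 and HSPA5 lie to the right in all 4 vessels.

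The comparison of 2% with 0% polydextrose asks what the fermented fibre added to the fluid, and it was fitted with vessel as a block. HSPH1, HSPE1, SERPINH1 and HSPD1 fell and DNAJB1 rose among 13 heat shock genes, and MANF, SDF2L1, PDIA4, CRELD2 and PDIA3 fell among 26 ER genes, against 20.8% of 8737 genes that passed in either direction, 9.65% that rose and 11.2% that fell. HSPH1 averaged 9.13 ± 0.42 with 2% and 9.83 ± 0.51 with 0% (SD, n = 4 each), a log2 change of -0.70 ± 0.09 (SE; limma, Benjamini-Hochberg adjusted p = 0.00195). HSPE1 averaged 10.73 ± 0.44 with 2% and 11.32 ± 0.41 with 0%, a change of -0.59 ± 0.10 (limma, adjusted p = 0.00664). Both were lower with 2% in 4 of 4 vessels, and vessel 1 with 2% overlapped the 0% arrays. SERPINH1 averaged 4.23 ± 1.32 with 2% and 6.05 ± 0.41 with 0%, a change of -1.82 ± 0.42 (limma, adjusted p = 0.0179) from the values as deposited, with vessels 2 to 4 of 2% under log2 5. DNAJB1 averaged 11.20 ± 0.56 with 2% and 10.57 ± 0.14 with 0%, a change of 0.63 ± 0.19 (limma, adjusted p = 0.0447), with 3 of 4 vessels higher and vessel 1 lower by 0.24. HSPD1 changed by -0.21 ± 0.06 (limma, adjusted p = 0.0481).

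Among the ER genes MANF averaged 9.65 ± 0.29 with 2% and 10.17 ± 0.22 with 0%, a change of -0.52 ± 0.13 (limma, adjusted p = 0.0272), and SDF2L1 changed by -0.52 ± 0.14 (limma, adjusted p = 0.0354). PDIA4 changed by -0.41, CRELD2 by -0.37 and PDIA3 by -0.34 (limma, adjusted p = 0.0401 to 0.0447). The median over 26 ER genes was -0.18 and over 13 heat shock genes -0.16, against -0.01 over all genes. Genes of ER-associated degradation did not pass: HERPUD1 had 0.30 ± 0.23, EDEM1 0.07 ± 0.14 and SEL1L 0.10 ± 0.15, and neither did HSPA5 (0.09 ± 0.12) or XBP1 (-0.54 ± 0.26). XBP1 was 0.59 higher with 2% than with 0% in vessel 1 and 0.79, 0.83 and 1.11 lower in vessels 2 to 4.

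HSPH1 and HSPE1 passed whichever of the 12 arrays was left out, and the other 8 genes did not. Without any 1 of vessels 2, 3 and 4 of 0%, or of vessels 2, 3 and 4 of 2%, those 2 were the only ones of the list to pass, without vessels 2, 3 and 4 of 1% the counts were 5, 6 and 4, and without vessel 1 of 0% 19 passed. With no block for vessel 0 of the 39 genes passed. The shares of all genes in this fit, and in those here and below that left out an array, are not given. Whether such counts are particular to the list cannot be said. As a sign of RNA integrity, the 3′ minus 5′ probe sets of ACTB gave a lower value with 2% than with 0% in each vessel, at 0.620, 0.547, 0.547 and 0.551 against 0.726, 0.596, 0.636 and 0.582, while the same measure of GAPDH was lower with 2% in vessel 1 and higher in vessels 2 to 4, at -0.112, -0.061, -0.088 and -0.072 against -0.056, -0.112, -0.097 and -0.095. The part of RNA integrity in the changes was not tested.

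**Figure D5:**
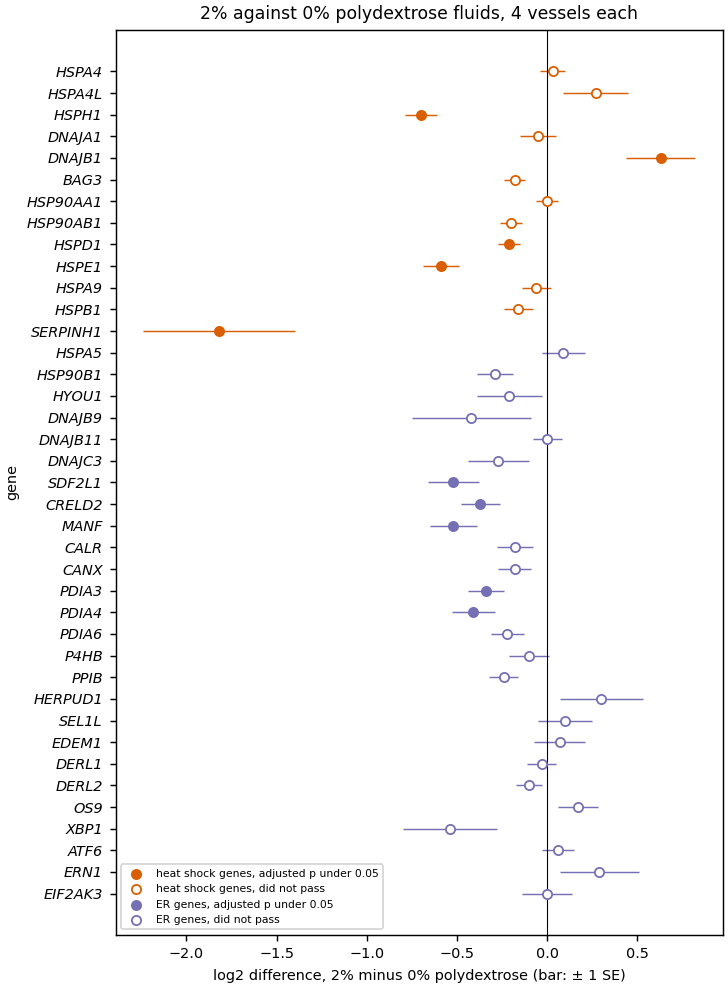
Log2 difference between the 2% and the 0% fluids (x axis, 2% minus 0%) for each of the 39 genes from limma with vessel as a block, with bars of 1 SE; filled points had an adjusted p under 0.05. The filled points are HSPH1, DNAJB1, HSPD1, HSPE1 and SERPINH1 among the heat shock genes and SDF2L1, CRELD2, MANF, PDIA3 and PDIA4 among the ER genes, and only DNAJB1 of these lies to the right of 0.

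The 1% fluids shared the 0% arrays as their baseline. HSPH1 fell by 0.58 ± 0.09 (SE; limma, adjusted p = 0.0179), averaging 9.26 ± 0.32 with 1% and 9.83 ± 0.51 with 0% (SD, n = 4 each). HSPE1 fell by 0.51 ± 0.10 (limma, adjusted p = 0.0317), averaging 10.81 ± 0.24 with 1% and 11.32 ± 0.41 with 0%. These were 2 of 13 heat shock genes, and 0 of 26 ER genes passed in limma (2 had an unadjusted p under 0.05), against 4.78% of all genes that passed and 2.15% that fell. HSPH1 lost its call in 4 and HSPE1 in 9 of the 12 fits that left out 1 array: 0 of the list passed without vessel 2 or 3 of 0% or without vessel 3 or 4 of 1%, and 1 without vessel 4 of 0%, vessel 1 or 2 of 1%, or vessel 2 or 4 of 2%. Without vessel 1 of 0% 6 passed. Between 2% and 1% limma passed no gene of the list and 0% of all genes (with an unadjusted p under 0.05 were 2 heat shock, 3 ER and 1608 of all genes), and 6 passed without vessel 1 of 0%. The median over the 26 ER estimates was -0.15, against -0.03 over all genes, with no gene past the threshold.

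Vessel 1 was set against vessels 2 to 4 to ask how the ascending colon vessel differed from those after it, over all concentrations. Of 13 heat shock genes HSPH1, HSPE1, SERPINH1, BAG3, HSPD1 and HSP90AB1 rose and DNAJB1 fell in vessel 1, and of 26 ER genes CRELD2, PDIA3, PDIA4, PPIB, SDF2L1, MANF and CALR rose and 0 fell, against 34.7% of all genes that passed in either direction, 19.3% that rose and 15.4% that fell. The largest changes were 2.25 ± 0.39 for SERPINH1 (limma, adjusted p = 0.00344), from the values as deposited with 6 of the arrays of vessels 2 to 4 under log2 5, 0.83 ± 0.08 for HSPH1 (limma, adjusted p = 0.000502), 0.69 ± 0.10 for HSPE1 (limma, adjusted p = 0.00156) and -0.56 ± 0.18 for DNAJB1 (limma, adjusted p = 0.0382). CRELD2 rose by 0.51, SDF2L1 by 0.48, PDIA4 and MANF by 0.44 and PDIA3 by 0.42. HSPH1, HSPE1, SERPINH1, BAG3 and CRELD2 passed whichever array was left out. The count was 7 without vessel 1 of 1%, 6 without vessel 1 of 2% and 22 without vessel 1 of 0%. At each concentration vessel 1 also had the highest 3′ to 5′ difference of ACTB (0.726, 0.924 and 0.620 with 0%, 1% and 2%, against 0.366 to 0.636 in vessels 2 to 4), while that of GAPDH was highest in vessel 1 with 0% and 1% (-0.056 and 0.042) and lowest there with 2% (-0.112), and their part was not tested.

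A single fluid, that of vessel 1 with 1% polydextrose, held the highest level of the ER genes most often. It was the highest of the 12 fluids for 15 of 26 ER genes and for 4 of 13 heat shock genes, against 23.1% of all genes tested. The fluid of vessel 4 with 0% was the highest for 8 of the remaining ER genes and for 1 heat shock gene, against 5.45% of all genes. In vessel 1 the 1% fluid exceeded the 0% fluid in 24 of 26 ER and 6 of 13 heat shock genes, against 54.1% of all genes, and it exceeded the 2% fluid in 25 of 26 ER and 7 of 13 heat shock genes, against 54.5% of all genes. Among the ER genes the largest gaps between 1% and 0% in vessel 1 were in DNAJB9 (10.55 with 1% and 8.84 with 0%), HERPUD1 (13.22 with 1% and 11.66 with 0%) and ERN1 (9.71 with 1% and 8.32 with 0%). Each is 1 array, so these gaps have no replicate check. That array also had a 3′ to 5′ difference of ACTB of 0.924, the highest of the fluids but below the 0.951 of medium. It also had 44.1% of genes at log2 5, the highest of all arrays. The part of both was not tested.

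Whether the slope with polydextrose concentration differed between vessel 1 and vessels 2 to 4 was tested as an interaction. By limma 0 of the 39 passed (3 heat shock and 7 ER genes had an unadjusted p under 0.05), against 1.17% of all genes. DNAJB1 came closest, with a slope in vessel 1 that differed by -0.58 ± 0.11 per 1% of polydextrose (limma, adjusted p = 0.0508), and then XBP1, with a slope that differed by 0.75 ± 0.18 (limma, adjusted p = 0.0806). Without vessel 1 of 1% 5 genes passed, without vessel 1 of 2% 7 passed and without vessel 2 of 2% 1 passed.

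Other genes of the same systems, in lists written for this purpose, were read beside the 41. One list held genes of the PERK branch and targets of ATF4, such as the ER stress transcription factors DDIT3 and ATF3. With 0% fluid 0 of its 10 genes differed from medium by at least 1, against 12.6% of all genes, and the median was 0.21. With 1% fluid 5 of the 10 were higher by at least 1 (19.7% of all genes differed by that much in either direction), among them DDIT3 (2.22), ATF3 (2.04) and CHAC1 (2.01), and with 2% fluid 3 were (23.2% of all genes). With NaCl 6 of the 10 were lower (16.6% of all genes), with DDIT3 at -2.44 and ATF3 at -1.81, and with butyrate 5 were (31.2% of all genes), with TRIB3 at -3.44 and CHAC1 at -1.86. Against butyrate 9 of the 10 were higher with 2% fluid (5% of all genes), including CHAC1 (3.62), TRIB3 (3.19) and DDIT3 (2.88). By limma ATF3 (1.23) and ASNS (0.43) rose with 2% against 0% (9.65% of all genes rose), and 5 of the 10 fell in vessel 1 against vessels 2 to 4 (15.4% of all genes fell), including ATF3 (-1.55) and SESN2 (-1.27).

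The other lists cover further folding and degradation genes. With 2% against 0%, where 11.2% of all genes fell and 9.65% rose by limma, 3 of 14 further cytosolic heat shock and co-chaperone genes fell, HSPA14 (-0.29), BAG2 (-0.43) and DNAJB4 (-0.44), and with butyrate HSPA2 was 1.54 higher than in medium and BAG2 1.65 lower. Of 7 cytosolic chaperonin genes CCT5 (-0.35) and CCT6A (-0.29) fell, and of 16 proteasome genes 4 fell, including PSMB5 (-0.38) and PSMB2 (-0.33). Of 23 further ER folding and quality control genes 1 rose, EDEM3 (0.28), and in the fluids EDEM2, a relative of EDEM1, was 1.22, 1.27 and 1.23 above medium at 0%, 1% and 2%. Of 9 further mitochondrial proteostasis genes 0 passed with 2% against 0% by limma.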

How the data were processed

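Total RNA from 15 treatments of Caco-2 cells was read on 1 array each. The authors deposited 1 table of log2 values for 54675 probe sets, made with GCRMA per the submitters' processing notes, which corrects background, normalizes and summarizes probes. The log2 scale was inferred from the values (0.173 to 14.46), while version and chip description are not given in the sources used here. Of the probe sets 41097 had 1 gene symbol, 1801 several and 11777 none. For each of 19775 genes the probe set whose mean of 15 arrays was highest was used. The number of arrays limits the precision.

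The 39 measured genes all passed the filter for the fluids (log2 5 or more in at least 4 of 12 arrays), as did 8737 genes in all. Limma 3.58.1 in R 4.3.3 was fitted to these with concentration and vessel as factors (6 residual degrees of freedom, 5 for the slopes), and two-sided p-values were adjusted by Benjamini-Hochberg over all 8737, with a threshold of 0.05. It was tested on simulated data. The vessels recur at each concentration by design. With the concentration means taken out, 12 pairs of arrays of the same vessel correlated with a median of 0.376 and 10 were above 0.1. Single arrays were compared where the brighter side reached log2 6, a difference of 1 was counted, and a side under log2 5 was set to 5 to give a bound. Promoters were searched in Python 3.11.15.

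The genes, their roles and the other lists were chosen with earlier results of these data known. Any of the listed genes may be named. Every array is given for those that passed a fit, differed by at least 1 on single arrays, or are HSPA5, HSP90B1 or HSPD1. Other genes come from the lists, up to 3 per list and comparison. Alternatives changed the filter, the probe set, the normalization, the variance model, the vessel block and the arrays used.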

Additional observations from a re-analysis of the deposited data

Results flagged for a closer look

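Within each group of 4 fluids 1 array stood far from the other 3 in 19 of the 117 groups tested (39 genes at 3 concentrations), by Dixon's ratio of gap to range. By chance about 5% of groups would hold such an array, and genes on 1 array are not independent. Vessel 1 was the distant array in 16 of the 19, and in 11 of these it was vessel 1 of 1%. The same count over all genes is not given, so these counts cannot be read as particular to the list. By limma 34.7% of all 8737 genes differed between vessel 1 and vessels 2 to 4. Vessel 1 of 1% was the highest fluid for 23.1% of them.

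Heat shock genes that were distant in vessel 1 were HSPH1 with 0% (10.60) and with 1% (9.74), DNAJA1 with 0% (11.49), DNAJB1 with 1% (10.52), HSPE1 with 1% (11.17), SERPINH1 with 1% (7.66) and with 2% (6.20), HSP90AB1 with 2% (12.81) and HSPD1 with 2% (13.42). All of these were above the other 3 vessels apart from DNAJB1, which was below them. ER genes that were distant in vessel 1 of 1% were DNAJC3 (10.57), CALR (9.76), PDIA3 (12.34), PDIA4 (10.63), PPIB (12.92), EDEM1 (8.58) and EIF2AK3 (9.33), and each was above vessels 2 to 4.

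The other 3 distant arrays lay in vessel 2, each below the rest of its group: HSPA5 with 1% (13.51), HERPUD1 with 1% (12.99) and PDIA4 with 0% (10.11). Their groups spanned only 0.22, 0.25 and 0.13 on the log2 scale.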

How the results depend on the processing

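Of the 39 genes, 10 passed for 2% against 0%, but 4 did so with no filter, 3 from the 8 arrays compared alone, 21 without the arrays of vessel 1, and 2 to 19 when 1 array was left out. With no replicate block for vessel 0 passed, so the calls depended on pairing the arrays by vessel. For 1% against 0%, 2 passed, against 0 with no replicate block, 0 from the 8 arrays alone, 8 without the arrays of vessel 1 and 0 to 6 with 1 array left out. For 2% against 1% the range was 0 to 6. For vessel 1 against the others 14 passed, against 1 in a linear trend over vessels and 6 to 22 with 1 array left out. The slope comparison had 0 genes, against 1 with a filter at log2 6, 1 with arrays centred on their median, 3 with an intensity trend and robust prior, and 0 to 7 with 1 array left out. From a 1.5-fold in place of a 2-fold difference, NaCl against medium had 9 genes in place of 2, butyrate against medium 18 in place of 8, butyrate against NaCl 19 in place of 7, the fluids against medium 7, 12 and 13 in place of 2, 6 and 7 (0%, 1% and 2%), and 2% fluids against butyrate 9 in place of 3. With 1 fluid left out the 0% fluids had 2 to 5. The causes were not tested, and the share of all genes past the threshold under each alternative is not given here. The counts therefore cannot be read as particular to these genes. No gene past the threshold changed direction under the alternatives run. Of genes that did not pass for 2% against 0%, HSPA5 (0.09) came to -0.02 without the arrays of vessel 1, and HERPUD1 (0.30) to -0.01 without vessel 1 of 0%. The gap between ER and heat shock medians stayed at 0.12 to 0.19, the lowest with SERPINH1 counted among the ER genes, an alternative chosen after seeing the data. Signals under log2 5 limit SERPINH1, whose differences there are bounds, and 1 array per treatment limits butyrate, NaCl and medium.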

Other observations

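With NaCl the transporters of organic solutes that cells raise under hypertonic stress included 2 genes far above medium. Of 6 such genes 2 were higher by at least 1 on the log2 scale, and the median of the list was 0.82. The 2 were the inositol transporter SLC5A3 (3.53) and the betaine transporter SLC6A12 (at least 2.65). Of all 7874 genes compared, 16.6% differed by at least 1 in either direction. In the same comparison 1 of 23 further ER folding and quality control genes was higher and 2 were lower by at least 1. UGGT1, the glucosyltransferase that senses misfolded glycoproteins in the ER, differed by -1.52, the ER oxidase ERO1B by -1.26 and the ER prolyl isomerase FKBP14 by 1.00. None of 16 proteasome or 7 cytosolic chaperonin genes differed by that much. Both arrays are single, so these differences have no replicate check.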
